A study of Mus musculus with 10 samples.

Results

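Fused mouse muscle cells of 2 groups that carry the same introduced protein were compared gene by gene, 1 of them labelled as having that protein at low level. The protein was PABPN1-FLAG, a tagged wild type PABPN1, the nuclear poly(A)-binding protein. The 5 arrays described here, of 8 in the series, were all those the labels set under low-level wild type (WTD, 3 arrays) and wild type with no level stated (WTA, 2 arrays). All came from IM2 cells, a mouse myoblast line, grown to confluence, kept under fusion conditions for 4 days and given no treatment, so the groups share cell line, tag, wild type sequence and day. The arrays labelled WTD held RNA of myotubes in which the labels call the level of wild type PABPN1-FLAG low, and those labelled WTA held RNA of myotubes for which no such level is stated. The labels do not give the promoter of the introduced gene, whether each culture was 1 clone, or whether replicates were separate cultures. The p-values therefore cover no more than array-to-array spread, technical spread included, and precision is limited by having 5 arrays.

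PABPN1 binds the poly(A) tails of newly made RNA in the nucleus, sets their length and takes part in the choice among polyadenylation sites. Short expansions of its alanine tract cause oculopharyngeal muscular dystrophy, a late-onset muscle disease in which the protein forms nuclear aggregates. Myotubes are the multinucleated cells that myoblasts form by fusion, and they switch on contractile proteins, calcium handling and a high capacity for glycolysis.

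Every WTD value rests on a restored row order. As deposited, the WTD signals stood in another order than the probe names beside them, and their rank correlations with the WTA arrays lay between -0.00787 and 0.0025. After each probe was matched by its pair of WTA ranks, these correlations were 0.725 to 0.789, and the 2 WTA arrays correlated at 0.762 with each other. The detection p-values printed beside WTD1 and WTD3 followed the signal of none of the 8 arrays, with strongest rank correlations of -0.735 and -0.711, where those of the other 6 arrays lay at -0.996 to -0.987 with their own signal. For WTD1 and WTD3, detection was therefore estimated from the signals, and whether these 2 columns carry the right labels was not tested. Detected probes numbered 16241, 13653 and 17565 on WTD1, WTD2 and WTD3, against 15793 and 16008 on WTA1 and WTA2, of 45281 on each array. The counts of WTD1 and WTD3 are estimates and may run high. Estimated in a like way, the counts were 14782 on WTD2, 16328 on WTA1 and 16847 on WTA2. All 16 myotube markers on the array were kept, with linear levels summing to 174710, 172452 and 167366 on the WTD arrays, against 184936 and 171124 on the WTA arrays. Each of the 16 was detected on all 5 arrays, and none was called between the groups.

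Levels below are log2 intensities after background correction and quantile normalization, on a scale whose floor is 4. A difference is the mean of the WTD arrays minus that of the WTA arrays, with its standard error (SE) from limma's moderated fit. A probe was called at a Benjamini-Hochberg adjusted p under 0.05 from limma over all 17071 probes detected on at least 2 of the 5 arrays. An exact permutation test of 3 against 2 arrays cannot give a two-sided p under 0.1 for a single gene, so every call rests on the fit across probes.

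Pabpn1 itself, on chromosome 14, was read by 1 probe. Its level was 9.96, 9.98 and 9.60 on the WTD arrays, against 8.98 and 8.92 on the WTA arrays. All 3 arrays labelled as the low-level group thus lay above both WTA arrays. The difference of 0.89 ± 0.19 (SE, n = 3 and 2), a 1.86-fold higher level, did not pass the test (limma, adjusted p = 0.0552), and it lay close enough to the threshold that 5 of the 15 alternatives that kept the restored order put it past it. Those 5 are not all separate, as blocking arrays by replicate number and leaving out WTD3 gave the same difference. The direction of the Pabpn1 difference runs against the label, which speaks of the introduced protein. Whether the probe reads the introduced RNA, the cell's own or both is not stated by the labels. Differences are therefore given between the arrays labelled WTD and WTA, and not as the effect of a lower PABPN1 level.

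Of the 17071 probes, 210 were called, 119 higher and 91 lower in WTD, which is 1.23% of those tested (0.697% higher and 0.533% lower). The median size of the called differences was 1.17 on the log2 scale, against 0.181 over all tested probes. All 210 had WTD arrays that did not overlap the WTA arrays, as had 3149 of 9956 genes (31.6%) by their brightest probe, called or not. Taking the brightest probe of each gene, 143 of 9956 genes were called (1.44%), 85 higher (0.854%) and 58 lower (0.583%), and the median difference of all genes was -0.01. WTD3 stood nearest to WTA: over the called probes its median distance from the WTA mean was 1.07, against 1.22 for WTD1 and 1.24 for WTD2. Leaving out WTA replicate 1 left 8 calls and leaving out WTA replicate 2 left 12, so the number of calls rests on both WTA arrays. Leaving out WTD1, WTD2 or WTD3 left 36, 99 or 279. Centring each array on its median in place of quantile normalization left no limma call, with 138 probes at an unadjusted p under 0.05 where the main scale had 2137. All 210 kept their sign in these 6 settings. The shares over all genes are the background for every list count below, and a list with 1 call is given for the value of that gene, with nothing read about the list.

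Sizes and calls of dim genes depend on the background correction. Sprr2k was detected on 1 of 3 WTD arrays, and Pdk1, Ak4, Mmp3 and Hectd2os on 2 of 3. Wnt10a, Tac4, Dpep1, Irx2, Erf, Igfbp6 and Lig1 were detected on 1 of 2 WTA arrays. The sizes of their differences lean on background values. Of 87 called genes named here, 50 had a difference over 1.5 times smaller with quantile normalization alone, and all 87 kept their sign. Brighter genes such as Pvalb, Rnu6 and Cmya5 kept most of their difference there (-2.79, 1.32 and -1.21) and were not called. In all, 37 genes lost their call, 29 of them among the 50. Those that lost it were Ak4, Ankrd37, Asprv1, Car12, Cdsn, Cmya5, Col4a2, Ctsw, Erf, Hectd2os, Igfbp2, Igfbp6, Irx2, Kcnc4, Lig1, Lpl, Mmp3, Msc, Ndrg1, Neat1, Pgam1, Pomgnt2, Ptgis, Ptn, Pvalb, Ramp1, Rnu6, Slc4a3, Snrnp70, Sprr2k, Tac4, Taf9b, Tenm4, Tgfb2, Thbs2, Tmod4 and Wnt10a.

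**Figure D1:**
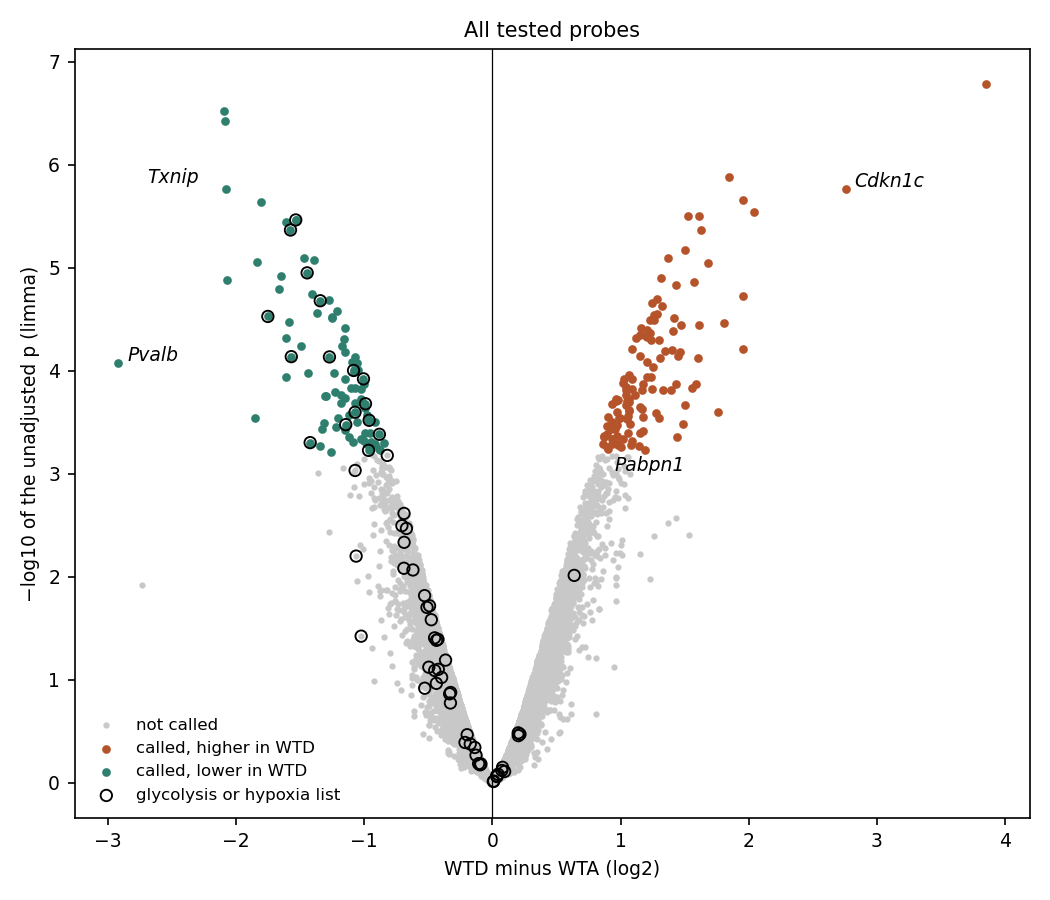
Difference between WTD and WTA arrays (log2, horizontal) against the −log10 of the unadjusted limma p (vertical) for the 17071 tested probes. Orange and green points are the 119 and 91 probes called higher and lower in WTD, and black rings mark the probe of each tested gene of the glycolysis and hypoxia lists, which lie mostly left of 0.

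Among the lists, those of hypoxia targets and of glycolysis held the most called falls. The lists were chosen with earlier results of these data known, so their counts describe these data and test nothing. Of 35 tested genes that hypoxia is known to switch on or that sense oxygen, other than glycolytic enzymes, 9 fell and none rose. Of 28 tested genes of glycolysis and glycogen handling, 7 fell and none rose. Over all genes, 0.583% were called lower. The median difference was -0.50 for the hypoxia list and -0.46 for the glycolysis list, beside -0.01 for all genes. Lists with no call could also lie below 0, with medians of -0.40 for cholesterol synthesis and -0.24 for p53 targets. As background, hypoxia-inducible factor is a pair of proteins whose oxygen-sensitive subunit, encoded by Hif1a, is marked for destruction by the Egln hydroxylases while oxygen is present. When it is stable it joins Arnt on DNA at sites with the core ACGTG. The pair raises glucose transport, glycolytic enzymes and the kinases that inhibit pyruvate dehydrogenase.

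The start regions of 4 of the fallen genes are shown because each holds that core, in capitals on either strand (ACGTG or its reverse complement CACGT). Each is the RefSeq window from 250 bases before to 50 after the annotated start, on build GRCm38.p6, printed on the gene's own strand. The genes make a glycolytic enzyme (Pgk1), the main glucose transporter of most cells (Slc2a1), an oxygen-sensing hydroxylase (Egln3) and an ankyrin repeat protein known as a hypoxia target (Ankrd37).
Pgk1, chrX:106186850-106187149, plus strand: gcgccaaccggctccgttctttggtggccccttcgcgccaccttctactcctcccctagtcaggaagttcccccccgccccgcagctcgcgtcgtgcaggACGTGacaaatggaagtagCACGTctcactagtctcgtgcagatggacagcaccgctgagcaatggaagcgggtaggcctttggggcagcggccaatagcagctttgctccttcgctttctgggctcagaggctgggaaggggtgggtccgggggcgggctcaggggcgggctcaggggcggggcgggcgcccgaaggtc
Slc2a1, chr4:119108495-119108794, plus strand: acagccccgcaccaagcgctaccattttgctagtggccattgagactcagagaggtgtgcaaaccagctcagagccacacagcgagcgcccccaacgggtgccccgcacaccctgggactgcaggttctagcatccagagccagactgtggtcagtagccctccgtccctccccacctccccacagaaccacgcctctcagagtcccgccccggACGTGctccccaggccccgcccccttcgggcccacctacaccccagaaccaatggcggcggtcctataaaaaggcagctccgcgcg
Egln3, chr12:54203825-54204124, minus strand: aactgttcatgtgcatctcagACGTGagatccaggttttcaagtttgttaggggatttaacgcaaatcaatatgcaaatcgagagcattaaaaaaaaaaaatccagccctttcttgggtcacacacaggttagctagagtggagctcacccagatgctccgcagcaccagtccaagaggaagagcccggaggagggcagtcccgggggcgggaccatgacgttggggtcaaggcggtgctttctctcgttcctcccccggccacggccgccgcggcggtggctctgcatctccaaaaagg
Ankrd37, chr8:45999801-46000100, minus strand: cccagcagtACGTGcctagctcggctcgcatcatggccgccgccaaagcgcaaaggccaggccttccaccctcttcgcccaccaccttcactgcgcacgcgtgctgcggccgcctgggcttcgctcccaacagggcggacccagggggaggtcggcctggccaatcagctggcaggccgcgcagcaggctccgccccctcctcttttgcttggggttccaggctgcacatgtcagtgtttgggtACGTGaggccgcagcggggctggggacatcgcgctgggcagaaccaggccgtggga
A window was found for 15 of the 16 fallen genes of both lists, and 10 of these 15 (66.7%) held the core in at least 1 window. Among all 55 tested members with a window, 35 (63.6%) held it, fallen or not, against 2407 of 8096 (29.7%) tested genes with a window. Over all 32851 windows of this length the share was 19.6%. The core overlaps the E-box CACGTG, which 1 of the 15 fallen genes held, against 11.8% of the tested genes. The match describes letters in these windows and not binding, and the members of the hypoxia list are known targets, so the share is no independent result.

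Pdk1, the kinase that inhibits pyruvate dehydrogenase, had levels of 5.47, 4.55 and 5.08 on the WTD arrays, against 6.68 and 6.90 on the WTA arrays. It was detected on 2 of 3 WTD arrays, so the size of its fall leans on a background value. It fell by 1.75 ± 0.25 on the log2 scale (limma, adjusted p = 0.0119). With quantile normalization alone it was called at -0.79, a smaller fall than that of Egln3 at -1.37. Egln3, whose protein hydroxylates the oxygen-sensitive subunit and is itself a hypoxia target, was at 8.40, 8.07 and 8.12 in WTD, against 9.80 and 9.73 in WTA. The groups lay far apart beside their spread, with a difference of -1.58 ± 0.18 (limma, adjusted p = 0.00457).

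Mitochondrial proteins of the list fell as well. Mgarp, which takes part in mitochondrial transport, was at 5.84, 5.09 and 5.87 in WTD, against 7.02 and 7.32 in WTA (difference -1.57). Fam162a, a mitochondrial protein linked to hypoxic cell death, was at 8.37, 8.04 and 8.35 in WTD, against 9.63 and 9.77 in WTA (difference -1.45). Ak4, a mitochondrial adenylate kinase, was at 4.38, 4.62 and 4.72 in WTD, against 5.62 and 6.07 in WTA (difference -1.27), with detection on 2 of 3 WTD arrays. In each of them the lowest WTA array lay above the highest WTD array, a condition for being named among the largest falls.

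Ndrg1, a stress-response protein, differed by -1.42 ± 0.29, with WTD2 (4.63) well below WTD1 (5.60) and WTD3 (5.69), against 6.71 and 6.75 in WTA. Kdm3a, a histone demethylase, differed by -1.08 and Ankrd37 by -1.07, with SEs of 0.18 and 0.20. Car12, a carbonic anhydrase, was above background on neither WTD1, WTD2 nor WTD3 and on both WTA arrays, so that it was at least 1.57-fold lower in WTD, while its other probe, dim on all arrays, differed by 0.31 with no call. Vegfa, the angiogenic growth factor, had 3 tested probes. Its brightest read 7.39, 6.91 and 7.71 in WTD, against 8.31 and 8.51 in WTA, and did not pass the test (difference -1.07, limma adjusted p = 0.0644). A second probe was called with a difference of -1.02. Another, near the floor of the scale, differed by 0.26 with no call, so the probes of Vegfa differ in sign only at the floor.

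The oxygen-sensitive subunit itself gave no call. Hif1a stood at 4.89, 5.26 and 5.98 in WTD, against 4.86 and 5.70 in WTA. Its groups overlapped, and the difference was 0.10 ± 0.32 (limma, adjusted p = 0.95). Stc2, a secreted glycoprotein chosen after its values were seen, was the highest member, with a difference of 0.64 that did not pass the test.

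**Figure D2:**
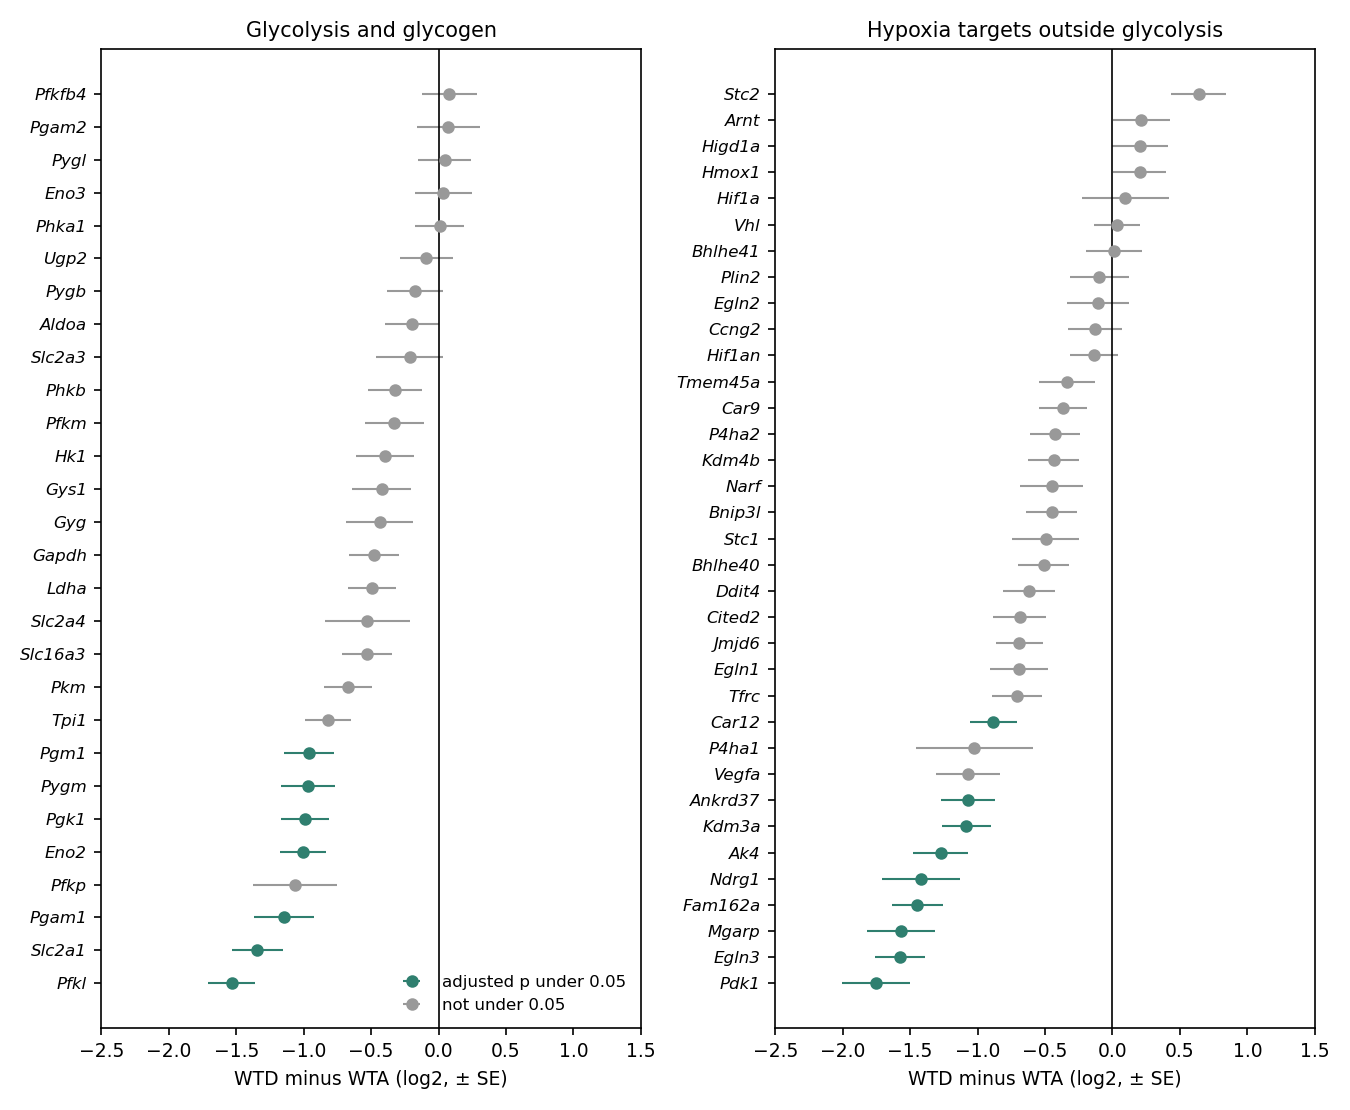
Difference between WTD and WTA arrays (log2, horizontal) for every tested gene of the glycolysis list (left, 28 genes) and the hypoxia list (right, 35 genes), 1 probe a gene. Points are limma estimates with bars of 1 SE, and the 7 and 9 genes at an adjusted p under 0.05 are green and all lie left of 0.

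Along the glycolytic route the falls began at glucose entry. Slc2a1 was at 8.02, 7.99 and 7.77 in WTD, against 9.13 and 9.41 in WTA, a difference of -1.34 ± 0.19 (limma, adjusted p = 0.0105). Pfkl, the liver-type subunit of phosphofructokinase at the committed step, was at 8.93, 9.15 and 9.08 in WTD, against 10.60 and 10.58 in WTA. Both groups were tight, and the difference of -1.53 ± 0.18 (limma, adjusted p = 0.00433) was the largest of the list.

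Of the enzymes further down, Pgk1 (phosphoglycerate kinase) was at 10.28, 10.01 and 10.14 in WTD, against 11.20 and 11.06 in WTA (difference -0.99 ± 0.18). Pgam1 (phosphoglycerate mutase) differed by -1.14 ± 0.22 and Eno2 (an enolase) by -1.01 ± 0.17. Pgm1 and Pygm, which turn glycogen into sugar phosphates for glycolysis, differed by -0.96 ± 0.18 and -0.97 ± 0.20. The muscle forms of the mutase and the enolase were less far from 0, with 0.07 for Pgam2 and 0.04 for Eno3, neither of them called and both chosen after their values were seen. Pygm, which fell, is itself a muscle form, so these values do not speak for muscle forms in general. Of the 28 genes, 23 had a difference below 0, and 13 had an unadjusted p under 0.05 with a lower level, where 6.65% of all genes did.

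Leaving out either WTA array ended all calls of both lists, and leaving out WTD1 left 2 in the glycolysis list and 3 in the hypoxia list. With WTD2 as the lone WTD array, whose variance was then taken from the WTA arrays and the fit, 1 and 6 were called, and the medians were -0.56 and -0.67.

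Beside glycolysis stood a gene pair that glucose controls. Txnip and Arrdc4 are alpha-arrestins that restrain glucose uptake, and sugar phosphates are known to induce both through the factors Mlxip and Mlxipl. Txnip was at 7.97, 8.28 and 8.68 in WTD, against 10.42 and 10.35 in WTA. No array overlapped, and the difference was -2.08 ± 0.22 (limma, adjusted p = 0.00433). Arrdc4 was at 5.97, 5.69 and 6.18 in WTD, against 7.34 and 7.01 in WTA, a difference of -1.23 ± 0.21. These were the 2 called genes of a list of 16, where 0.583% of all genes were called lower, and Mlxip differed by -0.33 (limma, adjusted p = 0.514).

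Single genes of the mitochondrial side were called. Of 31 tested genes of pyruvate handling and the citrate cycle, where 0.583% of all genes were called lower, Pdk1 and Gpd2, the mitochondrial glycerol-phosphate dehydrogenase that passes glycolytic electrons to the respiratory chain (difference -0.88), fell. Of 71 tested subunits of oxidative phosphorylation 1 was called, near the background of 1.44%. It was Ndufa3, a subunit of complex I, which rose: it was at 11.16, 11.14 and 11.29 in WTD, against 9.76 and 10.45 in WTA. Its difference was 1.09 ± 0.22 (limma, adjusted p = 0.0437), and WTA1 and WTA2 differed from each other by more than the WTD arrays did. The list had 47 of 71 genes above 0 and a median of 0.17. Under median centring, where the median of all probes was -0.10, the list's median was 0.01. None of 52 cytosolic ribosomal protein genes was called, while 45 of them lay above 0, where 48.6% of all genes did. Their median was 0.28, and 0.15 under median centring. None of 72 mitochondrial ribosomal protein genes was called, and their median was -0.03.

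A few genes of fast muscle and of its energy buffering fell, while the major contractile proteins gave no call. Pvalb, parvalbumin, the calcium-binding protein that speeds relaxation of fast fibres, had the largest fall of any named gene. Its level was 8.64, 8.75 and 10.64 on WTD1, WTD2 and WTD3, against 12.16 and 12.37 on the WTA arrays. WTD3 stood between the other WTD arrays and WTA, and the difference was -2.92 ± 0.48 (limma, adjusted p = 0.0176), a 7.57-fold lower level. Its call was lost under 10 of the 15 alternatives, while the difference stayed between -3.57 and -2.57. Without WTD3 it was called at -3.57, and without WTD1 or WTD2 it was not.

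Mybpc2, the fast form of myosin-binding protein C, was at 5.04, 5.21 and 5.60 in WTD, against 7.10 and 6.76 in WTA (difference -1.65 ± 0.22). These were the 2 called genes of 15 fast fibre genes. None of 17 slow fibre genes was called by its brightest probe. Csrp3, muscle LIM protein, was the exception by its other probes. Its brightest differed by 0.88 (limma, adjusted p = 0.174) and its other 2 tested probes were called at 1.09 and 1.15.

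Of 34 genes of the thin filament, Z-disc and M-band, Tmod4, the skeletal muscle tropomodulin that caps thin filaments, fell, with levels of 7.76, 7.52 and 8.53 in WTD, against 9.43 and 9.12 in WTA. Of 23 genes of excitation-contraction coupling, Rrad, a small GTPase that inhibits calcium channels, fell by 1.06 on the log2 scale. Of 12 genes of creatine and adenylate energy buffering, Ak4 and Ckmt2, the mitochondrial creatine kinase of striated muscle, fell. Ckmt2 was at 10.10, 9.91 and 10.12 in WTD, against 11.23 and 11.02 in WTA, with a difference of -1.08 ± 0.18. Cmya5, a costamere-associated protein of striated muscle, differed by -1.33 and Dupd1, a phosphatase, was above background on none of the WTD arrays and at least 2.26-fold lower. Lmcd1, a LIM and cysteine-rich domain protein, was among the clearest falls of all: 7.88, 8.06 and 8.21 in WTD, against 10.27 and 10.003 in WTA, a difference of -2.09 ± 0.19 (limma, adjusted p = 0.00213).

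Acta1, skeletal alpha-actin, lay at 14.26, 14.26 and 14.19 in WTD, against 14.50 and 14.19 in WTA, near the top of the scale (difference -0.11). Ckm, muscle creatine kinase, differed by -0.42 ± 0.21 and Mylpf, the fast regulatory light chain, by -0.03 ± 0.18. Mylpf too lay near the top of the scale, at 14.21, 14.21 and 14.44 in WTD, against 14.19 and 14.44 in WTA. A small difference there does not show that the groups were alike. None of these 3 passed the test. None of 7 embryonic contractile list, 14 acetylcholine receptor and junction, 12 dystrophin complex or 24 myoblast fusion genes did so either. The embryonic contractile list also holds Nes and Ncam1, which are not contractile proteins.

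**Figure D3:**
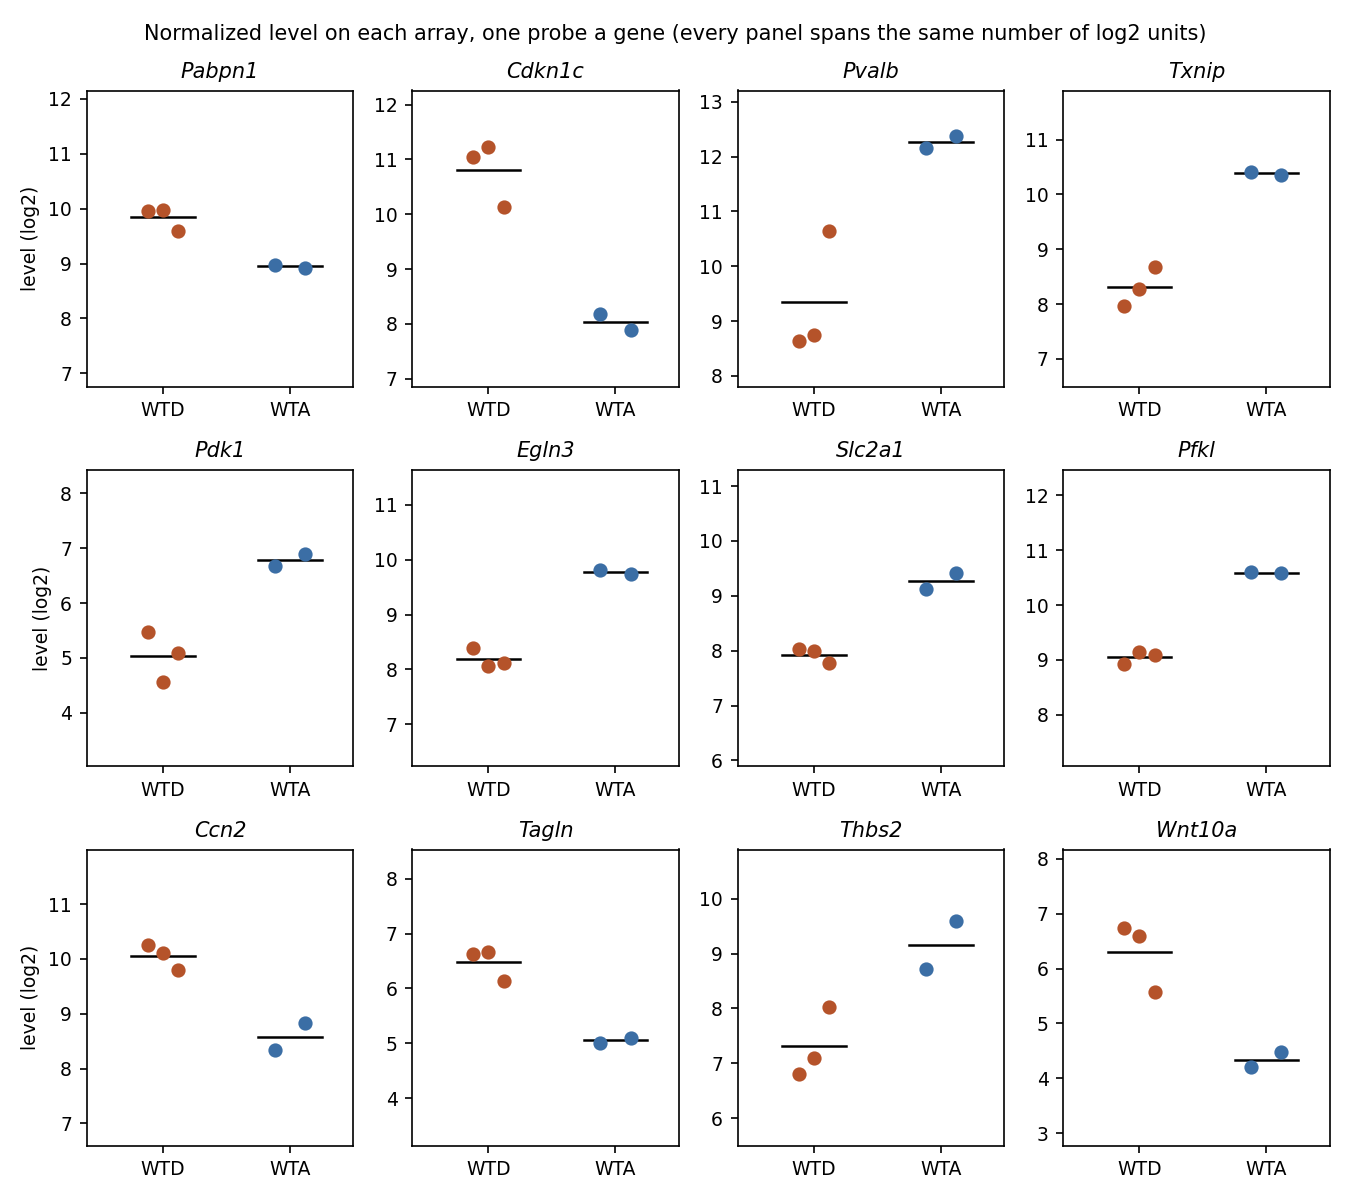
Normalized level (log2, vertical) of 12 genes on each of the 3 WTD arrays (orange, left) and the 2 WTA arrays (blue, right), with a black line at each group's mean; every panel spans the same number of log2 units. WTD points lie above WTA points for Pabpn1, Cdkn1c, Ccn2, Tagln and Wnt10a and below them for the other 7 genes, and WTD3 stands apart from the other WTD arrays for Pvalb.

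Among the regulators of the cell cycle 1 gene stood out. Cdkn1c encodes p57, an imprinted inhibitor of cyclin-dependent kinases that takes part in the cell cycle exit of muscle cells. Its level was 11.05, 11.22 and 10.12 in WTD, against 8.18 and 7.89 in WTA. The lowest WTD array was well above the highest WTA array, and the difference of 2.76 ± 0.29, or 6.78-fold, was the largest rise of any named gene (limma, adjusted p = 0.00433). It was the 1 call among 21 cell cycle inhibitors. Cdkn1a (p21) was at 13.78, 13.51 and 13.80 in WTD, against 13.54 and 13.85 in WTA, with groups that overlapped (difference below 0.01 in size, limma adjusted p = 0.998). Cdkn1b (p27) differed by -0.45 and was not called.

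Of 23 tested imprinted genes, Cdkn1c rose and Grb10, an adaptor that dampens insulin and IGF signalling, fell. Grb10 was at 5.14, 5.21 and 5.66 in WTD, against 6.56 and 6.40 in WTA (difference -1.15 ± 0.21). Igf2, which lies with Cdkn1c on chromosome 7, was high on all arrays, at 13.93, 14.12 and 13.97 in WTD, against 14.09 and 14.07 in WTA, and was not called. H19 and Pax7, named whatever their values, were detected on too few arrays to be tested. In the IGF list of 15, the binding proteins Igfbp2 and Igfbp6 rose (1.56 and 1.19) and Grb10 fell.

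Of 39 proliferation and replication genes, Lig1, the replicative DNA ligase, rose by 1.01, near the floor of the scale. Ccnd1, cyclin D1, differed by -0.30 and was not called. Of 24 myogenic regulators, Msc, musculin, a repressor of myogenic transcription, rose: 6.20, 6.23 and 5.67 in WTD, against 4.78 and 5.12 in WTA. Myog and Myod1, the factors that drive differentiation, differed by 0.27 and 0.28 with no call. None of 21 p53 targets was called.

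Both called ligands of the TGF-beta family rose. Of 38 tested genes of TGF-beta and BMP signalling, 3 rose and none fell, where 0.854% of all genes were called higher. The ligands among them were Tgfb1, at 7.88, 7.99 and 7.84 in WTD, against 7.04 and 7.03 in WTA, and Tgfb2, at 6.09, 5.86 and 5.93 in WTD, against 5.10 and 5.09 in WTA. Both differed by 0.87, more than the spread within either group. The third was Ccn2, connective tissue growth factor, a matricellular target of the pathway, at 10.26, 10.11 and 9.79 in WTD, against 8.33 and 8.83 in WTA (difference 1.47 ± 0.22). The receptors and inhibitors gave no call. The list's median was 0.25, and 0.05 under median centring. Without WTA1, WTA2 or WTD1 none of the list was called, and without WTD2 or WTD3 1 was. Tgfb2 kept its call in 4 of the 15 alternatives, with a difference of 0.34 under quantile normalization alone.

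Wnt10a, a Wnt ligand, was at 6.73, 6.59 and 5.57 in WTD, against 4.21 and 4.47 in WTA, close to the floor, and was the 1 call of 32 Wnt pathway genes, where 1.44% of all genes were called (difference 1.96 ± 0.31, limma adjusted p = 0.0157). With quantile normalization alone it was not called, at 0.76 (limma, adjusted p = 0.0972). Hey1, a transcription factor that Notch switches on, was the 1 call of 22 Notch pathway genes, at 7.47, 7.49 and 7.44 in WTD, against 6.53 and 6.60 in WTA. Of 14 genes of prostanoid and neuropeptide signalling, Tac4 (a tachykinin), Ptgis (prostacyclin synthase) and Ramp1 (a receptor partner) rose by 1.60, 1.59 and 0.91. Alox5, the 5-lipoxygenase that starts leukotriene synthesis, fell, with 7.72, 7.63 and 7.81 in WTD, against 8.78 and 8.99 in WTA. Cxcl14, a chemokine, rose by 1.31.

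A pair of genes known from smooth muscle rose. Tagln, transgelin, was at 6.63, 6.66 and 6.14 in WTD, against 5.01 and 5.10 in WTA (difference 1.42 ± 0.21, limma adjusted p = 0.0119). Myl9, a smooth muscle regulatory light chain, was at 9.21, 9.04 and 8.61 in WTD, against 7.36 and 7.74 in WTA (difference 1.40 ± 0.22). Tagln was the 1 call of 10 tested smooth muscle and myofibroblast markers, a list that does not hold Myl9. Acta2, smooth muscle actin, differed by 0.16 with no call. The summed linear level of that list ran from 33652 to 37566 in WTD, against 29702 to 35510 in WTA, ranges that overlapped, and Cnn1 and Myh11 were not tested for want of detection. A few bright genes carry this sum. The median log2 level of the tested markers was 7.12, 7.34 and 7.42 in WTD, against 6.36 and 6.41 in WTA. The list also holds Des, which is in the myoblast and myotube lists as well, so the sum says little about smooth muscle cells. The part of another cell type in these rises was not tested. In bulk RNA, more or fewer cells of a type and more or less RNA per cell cannot be told apart.

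Of 48 collagens and matrix proteins, Mfap2 and Col4a2 rose and Thbs2, Ptn and Mfap4 fell, where 0.854% of all genes were called higher and 0.583% lower. Col4a2, a basement membrane collagen chain, was at 9.25, 9.27 and 8.64 in WTD, against 7.92 and 7.84 in WTA. Mfap2, a microfibril glycoprotein, was below background on both WTA arrays and at least 2.10-fold higher in WTD by its brightest probe. Of its 2 other tested probes, 1 that was close to the floor on all arrays differed by 0.01 with no call. Thbs2, thrombospondin 2, was at 6.80, 7.09 and 8.02 in WTD, against 8.72 and 9.60 in WTA, so that both groups were spread (difference -1.85 ± 0.35). Ptn, pleiotrophin, differed by -1.61 and Mfap4 by -1.31.

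Of 34 matrix proteases and inhibitors, 2 rose and 2 fell. Timp1, an inhibitor of matrix metalloproteinases, was at 11.84, 11.61 and 11.63 in WTD, against 10.44 and 10.39 in WTA, a difference of 1.28 ± 0.18 at high levels. Ctsw, a cathepsin, rose by 1.81, and Htra3, a serine protease, and Mmp3, stromelysin, fell by 1.66 and 0.98. None of 6 tested fibroblast markers was called. Col1a1 differed by -0.73 (limma, adjusted p = 0.1). The summed linear level of the fibroblast list ran from 1609 to 1877 in WTD, against 2346 to 2771 in WTA, without overlap. Col1a1, with mean levels of 10.18 in WTD and 10.91 in WTA, weighs heavily in this sum. The median log2 level of the tested markers was 5.78, 5.68 and 6.10 in WTD, against 5.92 and 6.33 in WTA, ranges that overlapped. Of this list Dcn, Lum, Thy1, Fap, Pi16, Tcf21 and Cd34 were not tested for want of detection. The part of other cells in the matrix differences was not tested.

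At the cell surface single genes moved far. Cldn2, a tight junction protein, was at 6.56, 6.37 and 6.42 in WTD, against 8.38 and 8.71 in WTA, and with -2.09 ± 0.19 it was one of the clearest falls (limma, adjusted p = 0.00213). Its call held under 14 of 15 alternatives. Gja5, a connexin of gap junctions, was at 10.68, 10.65 and 10.99 in WTD, against 9.21 and 9.46 in WTA, a difference of 1.43 ± 0.19. Of 27 chloride and potassium channel genes, Clic3, an intracellular chloride channel protein, rose by 2.04 ± 0.23 and Kcnc4, a voltage-gated potassium channel, by 1.96 ± 0.27. With quantile normalization alone Clic3 was called at 0.98 and Kcnc4 was not, at 0.81. Clic3 was at 7.25, 7.24 and 6.65 in WTD, against 5.18 and 4.84 in WTA. Lrrc26, a partner of large-conductance potassium channels, was at 7.50, 7.81 and 7.60 in WTD, against 5.94 and 5.64 in WTA. Nrn1, neuritin, was at 5.05, 5.41 and 5.05 in WTD, against 6.83 and 7.14 in WTA.

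Other large changes belonged to none of the lists. Pacsin1, an endocytic adaptor, was at 10.44, 9.98 and 10.60 in WTD, against 8.72 and 8.59 in WTA, a difference of 1.68 ± 0.21. Spink4, a serine protease inhibitor, rose by 1.61, Dpep1, a membrane dipeptidase, by 1.57, and Tenm4, a teneurin, by 1.35. Taf9b, a subunit of the general transcription machinery, was below background on both WTA arrays and at least 2.51-fold higher in WTD. The other named rises were Irx2, Slc4a3, Parm1, Ntn5, Asprv1 and Erf, with differences of 1.28 to 1.43, and the other named falls were Sprr2k, Cyp2d22, Pomgnt2, Cdsn and Hectd2os, with differences of -1.61 to -1.26. In each of them the WTD arrays lay on 1 side of the WTA arrays, which was a condition for naming them. Of the 2 other tested probes of Erf, 1 had a difference below 0 with no call.

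**Figure D4:**
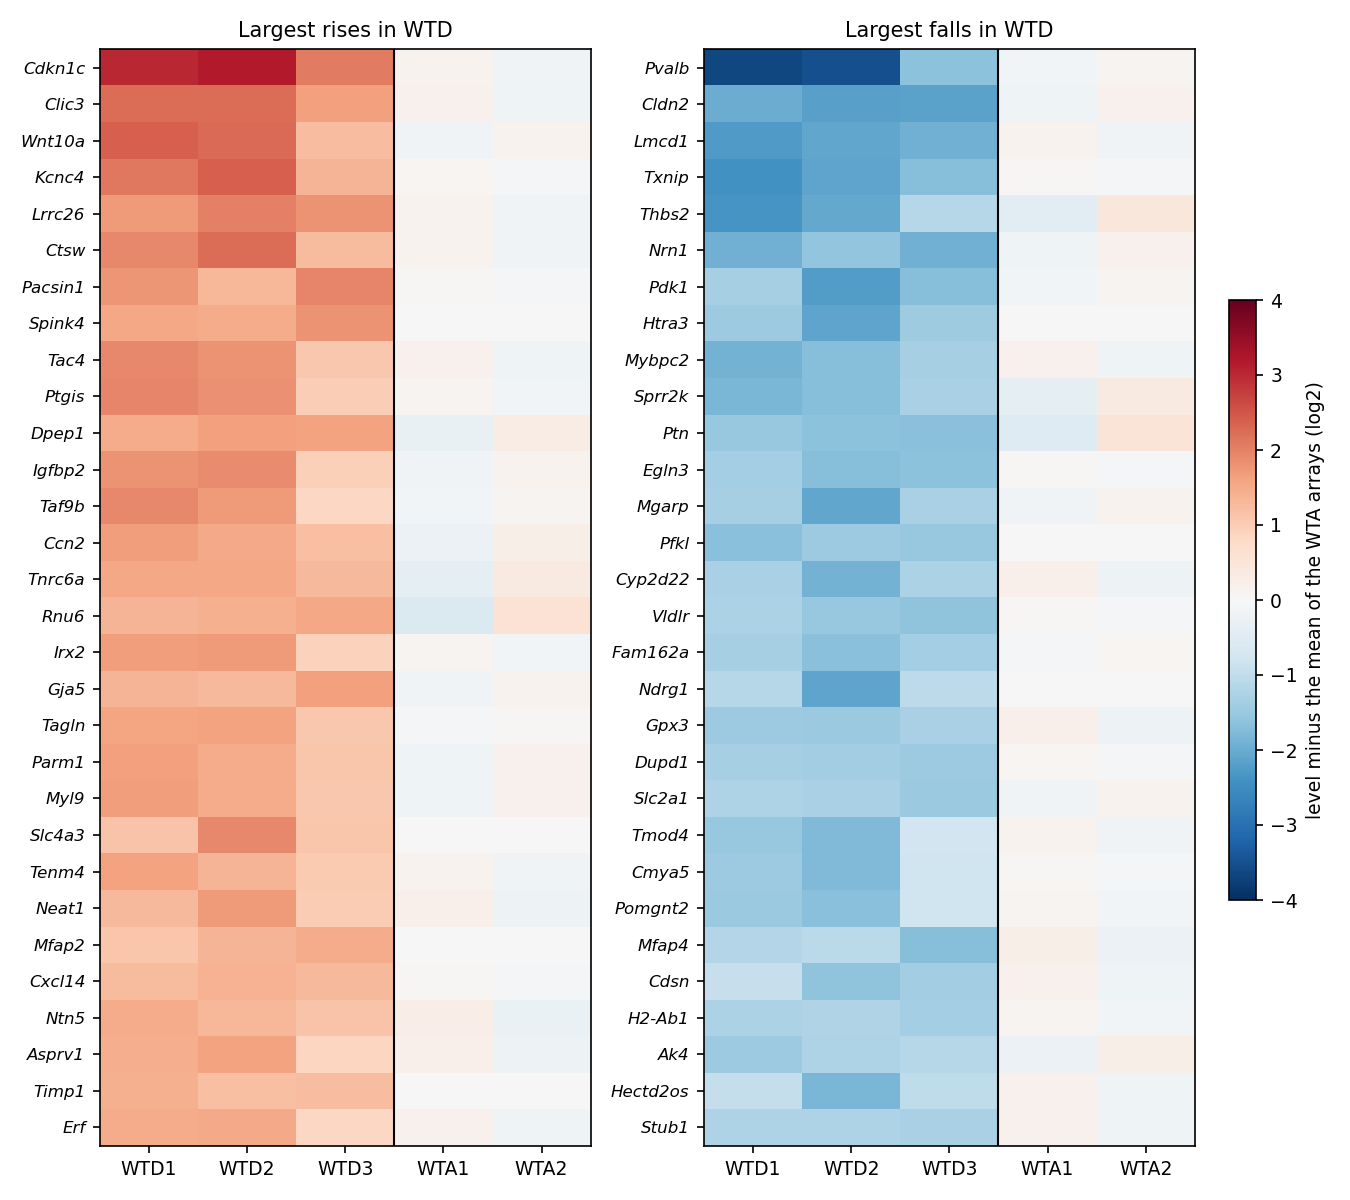
Level of the 30 called genes with the largest rise (left) and the 30 with the largest fall (right) on each array, as distance from the mean of the WTA arrays (log2, colour). WTD1, WTD2 and WTD3 stand left of WTA1 and WTA2, with red above and blue below the WTA mean, and the WTD3 column is paler for Cdkn1c, Wnt10a, Pvalb and Thbs2.

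PABPN1's own pathway gave no call. Of 50 tested genes of poly(A) tail and RNA 3-prime end processing, none passed the test, and the median was -0.04, where the background is 1.44% of genes called either way. Cnot7, a deadenylase, and Cstf3, a cleavage factor subunit, had the smallest p after Pabpn1, with differences of -0.60 and 0.63. Of 62 splicing factors and hnRNP proteins, Snrnp70, the U1 snRNP protein, rose: 6.26, 5.86 and 5.97 in WTD, against 5.02 and 4.86 in WTA. Neat1, the RNA scaffold of nuclear paraspeckles, rose by 1.33 ± 0.23, and Rnu6, a U6 spliceosomal RNA with many near-identical copies, by 1.44 ± 0.29. Rnu6 was at 10.48, 10.54 and 10.65 in WTD, against 8.54 and 9.70 in WTA, and copies sharing its probe make its level uncertain. Tnrc6a, a scaffold of microRNA silencing, differed by 1.46.

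The lists of the protein-quality systems are read against a background of 1.44% of genes called, and their counts lie near it. None of 40 translation factors, 41 proteasome genes, 19 atrophy ligase and FoxO genes, 41 autophagy and lysosome genes or 50 heat shock proteins and chaperones was called. Of 38 genes of the unfolded protein and integrated stress response, Vldlr fell, a lipoprotein receptor that is also among the 38 lipid genes. Vldlr was at 8.76, 8.52 and 8.42 in WTD, against 10.08 and 9.99 in WTA, a difference of -1.47 ± 0.18. Stub1, a ubiquitin ligase that works with chaperones and a member of the atrophy list, was called by the dimmer of its 2 probes (difference -1.25) and not by its brightest (-0.29). The called probe had 6.17, 6.18 and 6.11 in WTD, against 7.57 and 7.25 in WTA. A p that misses the threshold does not show that the other genes were alike.

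In lipid metabolism, Lpl, lipoprotein lipase, rose by 0.95 while Vldlr fell. Lpl is also the 1 called gene of 5 tested adipocyte markers. The summed linear level of the 12 adipocyte markers on the array, tested or not, was spread on both sides. It ran from 1263 to 2421 in WTD, against 779 to 1533 in WTA. The median log2 level of the tested markers ran the other way, at 4.31, 4.79 and 4.90 in WTD, against 5.32 and 5.19 in WTA. None of 19 cholesterol synthesis genes was called, with 13 below 0 and a median of -0.40. Mvd, an enzyme of the mevalonate route, was nearest, at 7.61, 7.95 and 7.75 in WTD, against 9.03 and 8.44 in WTA (difference -0.97, limma adjusted p = 0.0697). Of 38 redox enzymes and metallothioneins, Gpx3, a secreted glutathione peroxidase, fell, with 9.39, 9.36 and 9.55 in WTD, against 11.05 and 10.64 in WTA. Gpx7, a related peroxidase chosen after its values were seen, was at 4.39, 4.36 and 8.28 in WTD, against 8.35 and 8.48 in WTA. WTD3 lay close to the WTA arrays, and the difference of -2.74 did not pass the test (limma, adjusted p = 0.227).

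**Figure D5:**
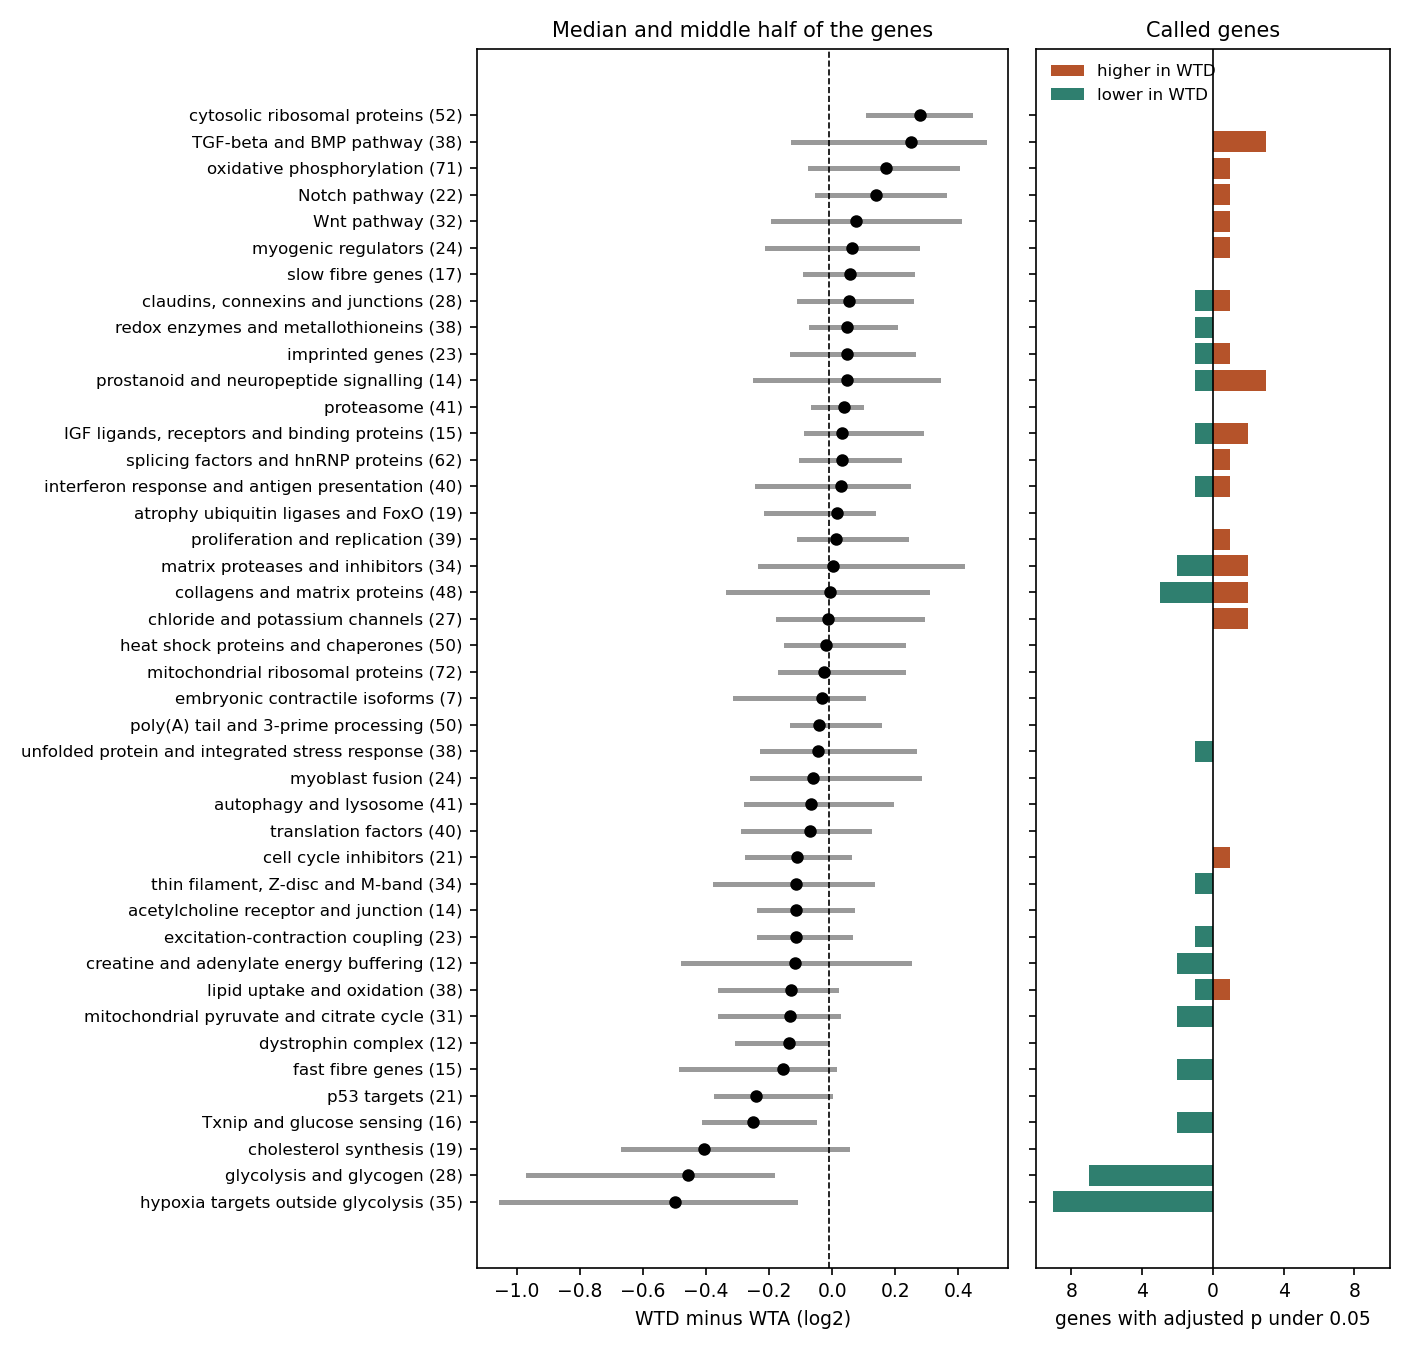
Left, median (point) and interquartile range (bar) of the difference between WTD and WTA arrays (log2) over the tested genes of each list, with the number tested in brackets and a dashed line at the median of all genes; right, number of genes called higher (orange) and lower (green) in WTD. The hypoxia and glycolysis lists stand at the bottom with medians of -0.50 and -0.46 and 9 and 7 falls, and the ribosomal list at the top with a median of 0.28 and no call.

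Interferon and antigen presentation genes gave 2 calls of 40, where 1.44% of all genes were called. Ifitm1, an interferon-induced membrane protein, was at 10.07, 10.08 and 10.31 in WTD, against 8.87 and 9.32 in WTA. H2-Ab1, a class II antigen chain, was above background on none of the WTD arrays and at least 2.08-fold lower there. Of the markers of other cells, none of 6 endothelial, 5 macrophage and leukocyte, 3 Schwann cell and neuron, 5 epithelial and 2 cartilage and bone genes that could be tested was called. Ptprc, the pan-leukocyte marker, Pecam1 and Cdh5 of endothelium and Epcam of epithelium were detected on fewer than 2 arrays. The summed linear level of the leukocyte list ran from 233 to 261 in WTD, against 231 to 244 in WTA. That sum is mostly floor, as the median log2 level of its tested genes was 4.38 to 4.69 in WTD, against 4.48 and 4.55 in WTA. The myoblast list summed to between 14246 and 16017 in WTD, against 12748 and 15053 in WTA, and Msc was its 1 call of 10. A few bright genes carry that sum too. The median log2 level of the tested genes was 6.07 to 6.24 in WTD, against 5.95 and 6.44 in WTA.

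Because PABPN1 acts on the choice of polyadenylation site, probes of 1 gene were set against each other. For 3419 genes with at least 2 tested probes, each other probe was paired with the brightest, giving 4920 pairs, and the change of their difference between groups was tested. None was called by limma (lowest adjusted p = 0.253), and 253 (5.14%) had an unadjusted p under 0.05. The 3 pairs with the smallest p belonged to Arhgef2, a guanine nucleotide exchange factor, Cemip, a hyaluronan-binding protein, and Htra3. The brightest probe of Arhgef2 differed by 0.97 between groups, and the probe paired with it, 1 of 3 others, by -0.52. For Htra3 the brightest differed by -1.66 and the other, close to the floor, by -0.03. In 98 pairs at least 1 probe was called, and in 9 of these the 2 probes had opposite signs. Where both probes were called, in 27 pairs, 0 had opposite signs. The position of the probes along the transcripts was not used here.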

How the data were processed

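Illumina mouse bead arrays were read for 8 samples, and 5 are used here. The series holds arrays of 2 WTA replicates, and both are used here. The deposited table gives an intensity per probe, not normalized, with a detection p-value deposited beside each, per the file headers. A deposited table of the authors' normalized log2 values served as an alternative. No label or header names its software.

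WTD rows were put back in probe order through the WTA values that both orders share. This departs in 1 respect from the planned analysis: the detection p-values of WTD1 and WTD3 were estimated from the signal of background probes. Probes with a detection p under 0.05 on at least 2 arrays were kept after neqc (limma 3.58.1, R 4.3.3, offset 16), and tested with lmFit and eBayes, two-sided. Genes were named through the platform's annotation: 34885 probes have 1 gene, 18 several and 10378 none. The brightest probe stands for a gene. "At least" folds set the brighter group's mean against the lowest signal above background.

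Named genes are Pabpn1, the 30 largest rises and falls among called genes with arrays that do not overlap, list members that were called or had the smallest p, and some fixed genes. The members and lists were chosen with earlier results of these data known. Alternatives covered normalization, filters, fits and left-out arrays, and the procedure was tested on simulated data. Possible batches could not be examined, since neither labels nor headers name slides or dates.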

Additional observations from a re-analysis of the deposited data

How the results depend on the processing

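All 210 called probes kept their sign wherever tested in the restored order. The count was 0 under median centring, 16 with no filter on dim probes, 387 with a trended and robust spread, 98 with WTD2 as the lone WTD array, and 8 to 279 when 1 array was left out. A lone array is taken to vary like the others, and normalization and filter were kept. In the deposited row order, 21401 of 24739 probes and 5953 probe pairs were called. Probe pairs gave 7 calls with quantile normalization alone and 8 with the authors' normalized values. Pabpn1 was past the threshold with quantile normalization alone (0.81), the authors' values (0.84) and the trended fit (0.89), with 0.83 to 1.02 when 1 array was left out. Nothing in the labels says that replicate numbers pair samples. The correlation of deviations (0.165 for number 1, -0.298 for number 2) cannot settle it, since those of 2 WTA arrays mirror each other. With the replicate block, 539 probes and 11 pairs were called, and Pabpn1 was past the threshold at 1.02. No WTA array shares the replicate number of WTD3, so the block takes its group differences without WTD3. The median difference over tested probes was -0.0222 both with the block and without WTD3, and Pabpn1 gave 1.02 in both. The block thus adds no difference of its own to the alternatives counted above. Uncalled genes changed sign. With 1 array left out at a time, Acta1 gave -0.265 to 0.045, Mylpf -0.153 to 0.0946, Cdkn1a -0.159 to 0.154, Hif1a -0.326 to 0.516, Ccnd1 -0.60 to 0.0017, Lyz2 -0.0334 to 0.175, Cdh1 -0.0145 to 0.302, Cldn3 -0.022 to 0.279 and Krt18 -0.129 to 0.308. Hif1a gave -0.207 with the block. With WTD2 alone Hif1a gave -0.0217 and Igf2 0.041, and Cdkn1a gave 0.0017 with the authors' values and 0.0008 with all 8 arrays. The cause was not tested. Using the deposited detection p-values left 173 calls. That setting and the one with WTD2 alone were chosen after seeing the data.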

Other observations

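The largest called difference belonged to a probe without a gene in the annotation, ILMN_2762925. It was at 9.12, 9.22 and 8.03 in WTD, against 5.15 and 4.72 in WTA, a difference of 3.85 ± 0.32 (limma, adjusted p = 0.00213). All 3 WTD arrays lay well above both WTA arrays. Of the 210 called probes, 24 named no single gene.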
